A study of Mus musculus with 6 samples.

Results

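The amino acid transporter genes of the mouse ventricle were followed in hearts that overexpress COUP-TFII, a nuclear receptor encoded by *Nr2f2*. Members were all genes on the array whose symbol begins with Slc1a, Slc3a, Slc6a, Slc7a, Slc36a, Slc38a or Slc43a and a number, with the creatine transporter *Slc6a8* left out. The rule found 62 members among the 18193 genes measured. It also takes in 3 genes on the opposite strand of a transporter gene (*Slc7a6os*, *Slc36a1os* and *Slc6a19os*), which are no transporters themselves and are counted separately below. The Slc6 family further holds *Slc6a2*, *Slc6a3* and *Slc6a4*, which carry noradrenaline, dopamine and serotonin rather than amino acids.

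Amino acids cross the cell membrane mainly through carriers, and each carrier accepts its own range of substrates. Some are driven by sodium or protons and can accumulate their substrate, such as the system A carriers of small neutral amino acids, while others exchange one amino acid for another, such as the complexes of the heavy chain *Slc3a2* with a light chain of the Slc7 family. In the heart, amino acids serve as building blocks of protein, as fuel and, in the case of taurine, as an osmolyte, and amino acid supply is sensed by the kinase complex mTORC1 and by the kinase GCN2, the latter acting through the transcription factor ATF4.

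RNA from the whole ventricles of each mouse, 3 CTRL and 3 OE, was hybridised to 1 Affymetrix mouse genome array. CTRL mice were *Myh6-MerCreMer* and OE mice *Myh6-MerCreMer; CAG-S-COUP-TFII*, both on a mixed 129SvEv/C57Bl6/J background. Tamoxifen was given to CTRL and OE mice alike, at 40 mg/kg/day for 3 days from 2 months of age, and the tissue was taken 16 days after the first dose, at a stated age of 2.5 months. The *Myh6* promoter drives the tamoxifen-activated Cre in cardiomyocytes, so that the transgene is switched on in these cells, whereas the arrays measured RNA of all cell types of the ventricle. CTRL mice carried the Cre and received tamoxifen too, but not the transgene.

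Values are on a scale taken as log2. Each probe set had been set relative to its median over all 6 arrays, so that values show differences between arrays and hold no expression level. Whether a transcript was above background in the ventricle, and which of 2 members was more abundant, could therefore not be read. Groups were compared with limma, and a gene is called higher or lower in OE where its p, adjusted over all 18193 genes, was under 0.05. Changes are the mean log2 value of OE minus that of CTRL, with the moderated standard error (SE).

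*Nr2f2* matched the labels: 1 of its probe sets had a mean of −1.75 ± 0.21 in CTRL and of 1.74 ± 0.16 in OE (SD, n = 3; log2 change 3.49, SE 0.13, adjusted p = 2.57e-05 over probe sets), and its other probe sets had changes of −0.34 to −0.13 and were not called. Arrays of the same group differed by 0.208 to 0.233 (CTRL) and 0.195 to 0.215 (OE) in root mean square log2 distance, and arrays of different groups by 0.375 to 0.427. Of all genes, 2709 were called higher and 2152 lower, and the median log2 change was −0.03. An exact permutation test of 3 against 3 arrays cannot give a p below 0.1, so no such test was used for single genes.

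Among the transporter genes, 8 were higher in OE, 7 were lower and 47 were not called. Those called higher were the 3 system A carriers *Slc38a4*, *Slc38a1* and *Slc38a2*, and the heavy chain *Slc3a2* with its light chain *Slc7a5*. Also higher were *Slc36a4* of the Slc36 family, the taurine transporter *Slc6a6* and the opposite-strand gene *Slc7a6os*. Those called lower were the proton-coupled *Slc36a2*, the glutamine transporter *Slc38a3*, the glutamate transporters *Slc1a7* and *Slc1a1*, and 3 Slc6 genes, *Slc6a18*, *Slc6a7* and *Slc6a17*. Background rates over all genes were 14.9% called higher and 11.8% called lower, or 26.7% in either direction, against 24.2% of the members, so that the share of members called was close to that of all genes. The changes ran from −0.95 to 1.10 with a median of −0.06. In 28 members the 3 OE arrays lay all on one side of the 3 CTRL arrays, above them in 11 and below them in 17, where 45.6% of all genes did not overlap. Without the opposite-strand genes, 7 members were higher and 7 lower.

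**Figure D1:**
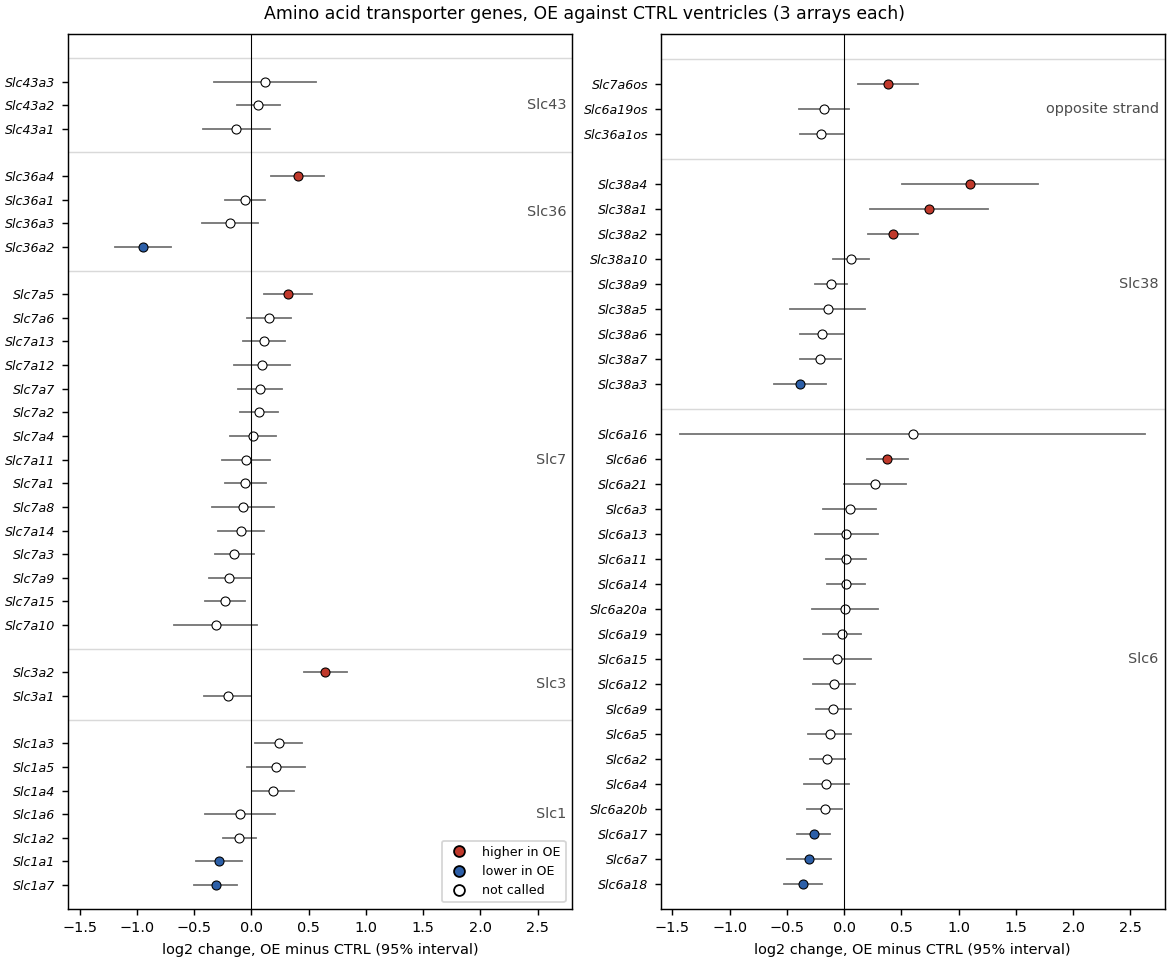
Change of each of the 62 amino acid transporter genes by family (points, OE minus CTRL in log2 units, 3 arrays each), with the 95% interval of limma as a line. Filled points were called higher (red) or lower (blue) with an adjusted p under 0.05. The largest rise is that of *Slc38a4* at 1.10, the largest fall that of *Slc36a2* at −0.95, and the interval of *Slc6a16* is by far the widest.

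The number of called members changed when single arrays were left out. Over all genes the calls went down each time, from 2709 to between 1830 and 2371 higher and from 2152 to between 1243 and 1731 lower. When CTRL 1 was left out, 2 members were called higher and 3 lower. Without CTRL 2 the numbers were 4 and 5, and without CTRL 3 they were 8 and 4. Leaving out OE 1 gave 6 higher and 3 lower, leaving out OE 2 gave 4 and 4, and leaving out OE 3 gave 3 and 3. *Slc36a2*, *Slc6a18* and *Slc3a2* were called under all 14 alternatives in which each member was tested, and *Slc6a6* under all but 1. Not all alternatives could differ, however. The first 3 genes have 1 probe set each, so a choice among probe sets left their values unchanged. The symbols of the array annotation were the same as those used, so that alternative repeated the main comparison for every gene. Centring on ribosomal protein genes lowered every change alike and could only deepen the falls of *Slc36a2* and *Slc6a18*. None of the 15 called members changed sign under any alternative, but most alternatives could not turn a sign. CTRL and OE arrays did not overlap for any of the 15, so leaving out or weighting arrays kept the sign. The analysis of variance and the replicate number as a block left each change as it was. The drop by ribosomal centring, 0.22 for every change, was less than the smallest called rise (0.32, *Slc7a5*).

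Carriers of system A, the sodium-driven uptake of alanine, serine, glutamine and other small neutral amino acids, were all called higher: 3 of 3, with a median log2 change of 0.74. By one-way analysis of variance, however, none of the 3 was called. *Slc38a4* (SNAT4) lay at −0.71, −1.15 and −0.11 in CTRL and at 0.11, 0.52 and 0.70 in OE. It showed the largest rise of the members, 2.15-fold (1.10, SE 0.26, adjusted p = 0.0176), although the CTRL arrays were spread widely, with CTRL 3 nearest to OE 1. Its call was lost without CTRL 1, OE 2 or OE 3 (log2 0.98 to 1.08, adjusted p from 0.053 to 0.0591).

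*Slc38a1* (SNAT1) measured −0.25, −0.94 and −0.11 in CTRL and 0.11, 0.60 and 0.22 in OE. Again the groups did not overlap, CTRL 2 lay far below the other CTRL arrays, and the rise was 1.67-fold (0.74, SE 0.22, adjusted p = 0.0422). This call was the least steady of the system A genes and was lost without CTRL 1, CTRL 2, OE 1, OE 2 or OE 3 (log2 0.49 to 0.84, adjusted p from 0.0647 to 0.119), and also without the probe set ending in _s_at (log2 0.38). Centring arrays on ribosomal protein genes or taking the replicate number as a block lost the call as well.

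*Slc38a2* (SNAT2), the system A carrier known to be induced when amino acids run short, had values of −0.28, −0.12 and −0.27 in CTRL and 0.07, 0.16 and 0.37 in OE. OE 1 was the lowest OE array and still above every CTRL array, and the rise was 1.34-fold (0.43, SE 0.09, adjusted p = 0.0148). It was not called without CTRL 1 (log2 0.40, adjusted p = 0.0504), nor from its probe set of largest variance alone (log2 0.46, adjusted p = 0.0932).

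No other Slc38 gene was called higher. *Slc38a3* (SNAT3), a system N carrier that moves glutamine, histidine and asparagine in either direction, fell from 0.26, 0.04 and 0.24 in CTRL to −0.04, −0.27 and −0.31 in OE, without overlap (−0.39, SE 0.10, adjusted p = 0.0255). The call was lost without CTRL 1, CTRL 3, OE 2 or OE 3 (log2 −0.33 to −0.36, adjusted p from 0.0654 to 0.0802). *Slc38a5*, the other system N carrier, had a change of −0.14 with overlapping groups (adjusted p = 0.481). *Slc38a7*, which exports glutamine from lysosomes, had a change of −0.21 (adjusted p = 0.082), while *Slc38a6* (−0.19), *Slc38a9* (−0.11) and *Slc38a10* (0.06) were not called either by limma. Unadjusted, *Slc38a6* and *Slc38a7* had a p under 0.05, and the analysis of variance called *Slc38a9* lower. In all, 3 of the 9 Slc38 genes were higher and 1 was lower.

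Heterodimeric transporters consist of a heavy chain of the Slc3 family, which brings the complex to the membrane, and a light chain of the Slc7 family, which moves the amino acid. *Slc3a2* (4F2hc, CD98), the heavy chain of most of them, lay at −0.27, −0.23 and −0.31 in CTRL and at 0.47, 0.23 and 0.44 in OE. Both groups were tight and far apart, and the rise was 1.57-fold (0.65, SE 0.08, adjusted p = 0.00163). Without single arrays it ranged from 0.60 to 0.72 and was called each time. *Slc3a1* (rBAT), the heavy chain of the cystine transporter of kidney and gut, had values of 0.31, 0.16 and 0.01 in CTRL and −0.11, −0.01 and −0.02 in OE, which did not overlap but lay close, and it was not called (−0.21, SE 0.09, adjusted p = 0.122).

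Of the 6 light chains that pair with *Slc3a2*, 1 was called. *Slc7a5* (LAT1), which takes up leucine and other large neutral amino acids, measured −0.07, −0.16 and −0.12 in CTRL and 0.07, 0.14 and 0.39 in OE. OE lay above CTRL in all arrays, OE 3 highest, and the rise was 1.25-fold (0.32, SE 0.09, adjusted p = 0.0378). It was among the least steady of the calls and was lost without CTRL 1, CTRL 2, CTRL 3, OE 2 or OE 3 (log2 0.23 to 0.35, adjusted p from 0.0649 to 0.1).

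*Slc7a8* (LAT2), the second leucine exchanger, overlapped between groups with 0.04, 0.05 and −0.04 in CTRL and −0.22, −0.17 and 0.21 in OE (−0.07, 95% interval −0.34 to 0.19, adjusted p = 0.665). For *Slc7a11* (xCT), which imports cystine in exchange for glutamate and supplies cysteine for glutathione, the values were 0.02, 0.03 and −0.04 in CTRL and −0.20, −0.07 and 0.12 in OE. OE arrays fell on both sides of the CTRL arrays (−0.05, 95% interval −0.26 to 0.16, adjusted p = 0.708). The heavy chain thus rose without a call for its cystine-importing light chain. *Slc7a6* (y+LAT2) had all OE arrays just above CTRL but was not called (0.15, adjusted p = 0.204), and neither were *Slc7a7* (y+LAT1, 0.07) and *Slc7a10* (asc-1, −0.31, adjusted p = 0.175). None of 4 other light chains was called by limma or by analysis of variance. They were *Slc7a9* (−0.19), a partner of *Slc3a1*, *Slc7a12* (0.09), *Slc7a13* (0.11) and *Slc7a15* (−0.23, adjusted p = 0.0597 by limma). Of these, *Slc7a9* and *Slc7a15* had an unadjusted p under 0.05.

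The cationic branch of the Slc7 family, which takes up arginine, lysine and ornithine, held no called gene among 5 by limma, and none by analysis of variance or at an unadjusted p under 0.05. *Slc7a1* (CAT1), its widely expressed member, lay at −0.03, 0.04 and 0.05 in CTRL and at −0.16, 0.01 and 0.04 in OE, with overlap (−0.05, 95% interval −0.23 to 0.12, adjusted p = 0.631). The changes of *Slc7a2*, *Slc7a3*, *Slc7a4* and *Slc7a14*, the last 2 placed in the branch by sequence, ran from −0.15 to 0.07. Likewise *Slc43a1* (LAT3, −0.13) and *Slc43a2* (LAT4, 0.06), which let large neutral amino acids pass along their gradient, and their relative *Slc43a3* (0.12) overlapped between groups, and none of these 3 passed limma, the analysis of variance or an unadjusted p under 0.05.

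The 2 called genes of the Slc36 family moved in opposite directions. *Slc36a2* (PAT2), a carrier of glycine, alanine and proline, lay at 0.41, 0.75 and 0.40 in CTRL and at −0.40, −0.40 and −0.51 in OE. No OE array came near the CTRL range, and the fall was 1.93-fold (−0.95, SE 0.11, adjusted p = 0.00101), the largest among the members. *Slc36a4* (PAT4), which carries proline and tryptophan, measured −0.22, −0.32 and −0.05 in CTRL and 0.33, 0.05 and 0.22 in OE. Its rise was 1.32-fold (0.40, SE 0.10, adjusted p = 0.0227), with CTRL 3 and OE 2 nearest to each other, and it was not called without CTRL 1, CTRL 2, OE 1 or OE 3 (log2 0.34 to 0.39, adjusted p from 0.0634 to 0.077). *Slc36a1* (PAT1), found on lysosomes (−0.06), and *Slc36a3* (−0.19) were not called.

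**Figure D2:**
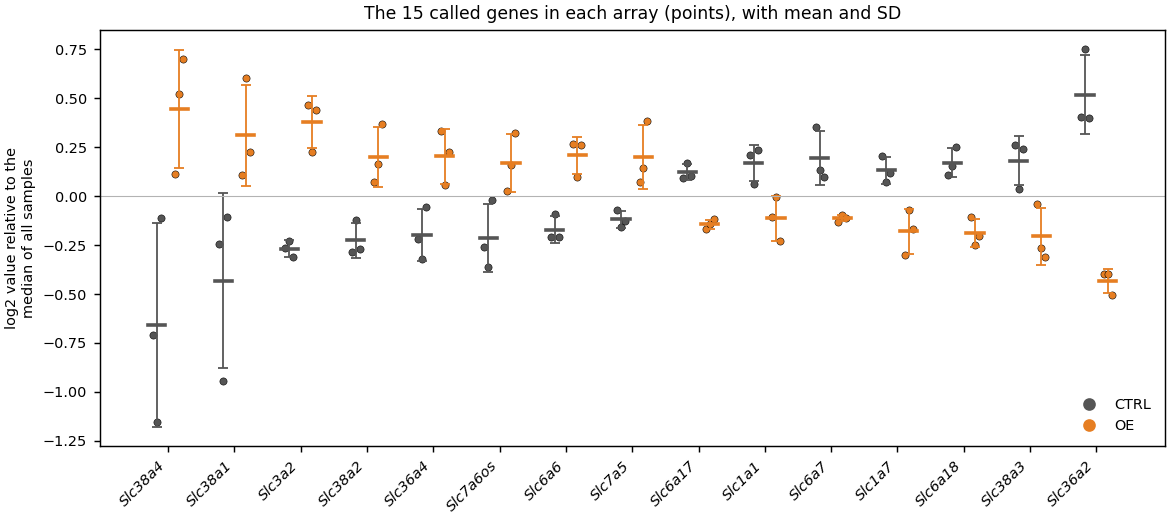
Values of the 15 called genes in each of the 6 arrays (points, log2, centred for each probe set as deposited), with the group mean (bar) and SD (whiskers, n = 3) for CTRL (grey) and OE (orange). CTRL and OE arrays do not overlap for any of them, while the spread of *Slc38a4* and *Slc38a1* in CTRL is wider than that of the others.

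Of 5 high-affinity glutamate and aspartate transporters, 2 were lower and none was higher. *Slc1a7* (EAAT5), described mainly in the retina, lay at 0.21, 0.07 and 0.12 in CTRL and at −0.30, −0.07 and −0.17 in OE, and CTRL 2 and OE 2 came nearest to each other (−0.31, SE 0.08, adjusted p = 0.027). Its call was lost without CTRL 1, CTRL 3, OE 1 or OE 3 (log2 −0.25 to −0.32, adjusted p from 0.055 to 0.0874). *Slc1a1* (EAAT3), which also carries cysteine, measured 0.21, 0.06 and 0.23 in CTRL and −0.11, −0.0041 and −0.23 in OE, where OE 3 was lowest (−0.28, SE 0.09, adjusted p = 0.0438). It passed the threshold narrowly, was not called with arrays centred on their median, and was not called without CTRL 1, CTRL 3, OE 1 or OE 3 (log2 −0.22 to −0.29, adjusted p from 0.105 to 0.119).

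*Slc1a3* (EAAT1, GLAST) pointed the other way without being called: −0.04, −0.18 and −0.06 in CTRL and 0.08, 0.31 and 0.05 in OE, OE above CTRL in every array with OE 2 farthest (0.24, SE 0.09, adjusted p = 0.0831). *Slc1a2* (−0.11) and *Slc1a6* (−0.10) were not called. The neutral amino acid exchangers of this family were not called either. *Slc1a5* (ASCT2), known for glutamine uptake, lay at 0.08, −0.10 and −0.08 in CTRL and at 0.41, 0.12 and 0.03 in OE, so that OE 3 was below CTRL 1 (0.22, SE 0.11, adjusted p = 0.182). *Slc1a4* (ASCT1) had a change of 0.19 without overlap (adjusted p = 0.114).

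The Slc6 family is sodium- and chloride-dependent. Its taurine carrier *Slc6a6* (TauT), through which heart cells take up this osmolyte, lay at −0.21, −0.09 and −0.21 in CTRL and at 0.27, 0.10 and 0.26 in OE. OE exceeded CTRL in every array by a margin wider than the spread within either group, and the rise was 1.30-fold (0.38, SE 0.08, adjusted p = 0.0106). The related carriers of GABA and betaine, *Slc6a11* (0.02), *Slc6a12* (−0.09) and *Slc6a13* (0.02), were not called.

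In the same family 3 of the 19 Slc6 genes were lower, where 11.8% of all genes were. In either direction 21.1% of the family was called, against 26.7% of all genes. The 3 lower genes are best known from other organs. *Slc6a18*, a neutral amino acid carrier of the kidney, lay at 0.11, 0.16 and 0.25 in CTRL and at −0.11, −0.25 and −0.20 in OE (−0.36, SE 0.07, adjusted p = 0.0108). *Slc6a7*, the proline transporter of brain, measured 0.35, 0.13 and 0.10 in CTRL and −0.13, −0.10 and −0.11 in OE, with CTRL 1 highest (−0.31, SE 0.08, adjusted p = 0.0306), and lost its call without CTRL 1, CTRL 2, OE 1, OE 2 or OE 3 (log2 −0.23 to −0.34, adjusted p from 0.0524 to 0.0892). *Slc6a17*, a carrier of synaptic vesicles, had values of 0.09, 0.17 and 0.10 in CTRL and −0.17, −0.14 and −0.12 in OE (−0.27, SE 0.06, adjusted p = 0.0189). All OE arrays were below CTRL, and the call was lost without CTRL 2, OE 1 or OE 2 (log2 −0.24 to −0.27, adjusted p from 0.0517 to 0.0648), and with the probe set of largest variance (adjusted p = 0.0943). Since the values hold no level, it could not be read whether these 3 transcripts were above background in ventricles.

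Among the other Slc6 genes, the glycine transporters *Slc6a9* (−0.09) and *Slc6a5* (−0.12), the monoamine transporters *Slc6a2* (−0.15), *Slc6a3* (0.05) and *Slc6a4* (−0.15), and the neutral amino acid carriers *Slc6a14* (0.02), *Slc6a15* (−0.06) and *Slc6a19* (−0.02) were not called. *Slc6a20a* (0.01) and *Slc6a20b* (−0.17) were not called either, and as closely related copies they may share signal on their probe sets. *Slc6a21* had a change of 0.27 and was not called (adjusted p = 0.123). *Slc6a16* had the widest spread of the members, with −0.45, −0.62 and 1.502 in CTRL and 2.62, 0.45 and −0.85 in OE, and its pooled SD of 1.49 compares with a median of 0.10 over the members. The arrays of each group ran across the range of the other, so that its difference of 0.60 (SE 0.88, adjusted p = 0.641) rests on OE 1, without which it was −0.34.

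Of the 3 opposite-strand genes, *Slc7a6os* was called higher, with −0.26, −0.36 and −0.02 in CTRL and 0.03, 0.16 and 0.32 in OE (0.38, SE 0.11, adjusted p = 0.0394). CTRL 3 and OE 1 were close to each other, and the call was lost without CTRL 1, CTRL 2, OE 2 or OE 3 (log2 0.31 to 0.39, adjusted p from 0.0872 to 0.114). *Slc36a1os* (−0.20) and *Slc6a19os* (−0.18) were not called.

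The 62 members were measured by 123 probe sets, of which 14 were called higher and 10 lower, where 24.4% of all 34945 probe sets were called in either direction. A single probe set stood for 31 members, and at most 7 for 1. Among the called members *Slc36a2*, *Slc3a2*, *Slc6a18*, *Slc36a4*, *Slc1a7*, *Slc6a7* and *Slc7a5* rest on 1 probe set each, with no second one to compare. Of 8 called members with more than 1 probe set, 7 had all of them on the same side of 0. Both probe sets of *Slc38a4* had positive changes (1.43, called, and 0.78, adjusted p = 0.0503), as had both of *Slc38a1* (1.11, called, and 0.38) and all 3 of *Slc38a2* (0.59, called, 0.46 and 0.24). *Slc6a6* was the exception, with 2 probe sets called higher (0.97 and 0.76), 1 near 0 (0.09) and 1 that pointed down without being called (−0.31). Its average of 0.38 therefore lies below what the first pair measured.

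In 8 members a probe set was called although the average of the gene was not. In *Slc1a5* 1 probe set was called higher (0.64, adjusted p = 0.0351) and the other was not called (−0.21). *Slc1a3* had 1 of 6 called higher (0.63), and *Slc1a4* (0.35), *Slc7a2* (0.46) and *Slc38a10* (0.33) each had 1 called higher as well. *Slc38a6* (−0.40) and *Slc6a20b* (−0.34) each had 1 called lower. *Slc38a9*, the arginine sensor of the lysosome, was the one member with probe sets called in both directions, 1 of its 7 higher (0.46, adjusted p = 0.00881) and 1 lower (−0.66, adjusted p = 0.0146), and its average of −0.11 lies between them. Conversely, *Slc7a5* and *Slc6a17* were called as genes but had no called probe set when all probe sets were tested (adjusted p = 0.0509 for the 1 of *Slc7a5*, and from 0.0566 to 0.0946 for the 3 of *Slc6a17*).

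**Figure D3:**
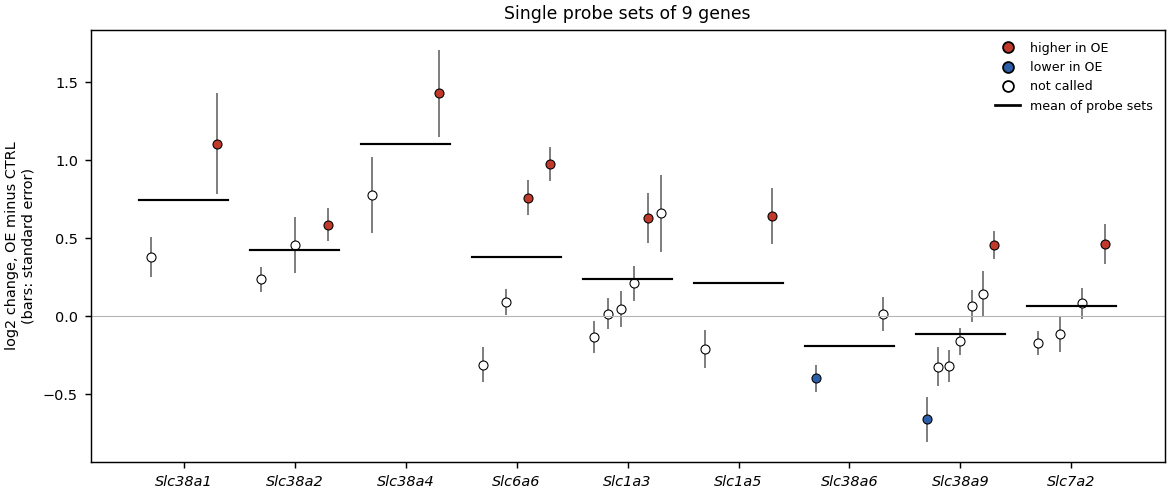
Changes of the single probe sets (points, log2 OE minus CTRL, with SE) of 9 members whose probe sets differ, and the mean of the probe sets of each gene (bar). Filled points were called higher (red) or lower (blue) among all probe sets. The 4 probe sets of *Slc6a6* run from −0.31 to 0.97 and the 7 of *Slc38a9* from −0.66 to 0.46.

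A second scaling of the arrays used cytosolic ribosomal protein genes as reference. Cytosolic ribosomal protein genes had a median change of 0.21 in the deposited values. With each array centred on the 42 of them, the median change over all genes went down to −0.25 from −0.03, and 2 members, *Slc3a2* (0.43) and *Slc38a4* (0.89), were higher and 35 lower, beside 7.16% of all genes higher and 50.8% lower. Under this scaling *Slc38a1* (0.53), *Slc38a2* (0.21), *Slc36a4* (0.18), *Slc7a6os* (0.17), *Slc6a6* (0.16) and *Slc7a5* (0.10) kept a positive sign and lost their call. All 7 members called lower remained so, but a drop shared by every gene could only deepen these falls and did not test them. Every change dropped by 0.22, so the sign turned wherever the change as deposited lay between 0 and that amount, as in 16 members (25.8%, against 23.9% of all genes). One-way analysis of variance, the test named in the methods, called 2 members higher (*Slc3a2* and *Slc6a6*) and 4 lower (*Slc36a2*, *Slc6a18*, *Slc6a17* and *Slc38a9*), where it called 14.1% of all genes in either direction.

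**Figure D4:**
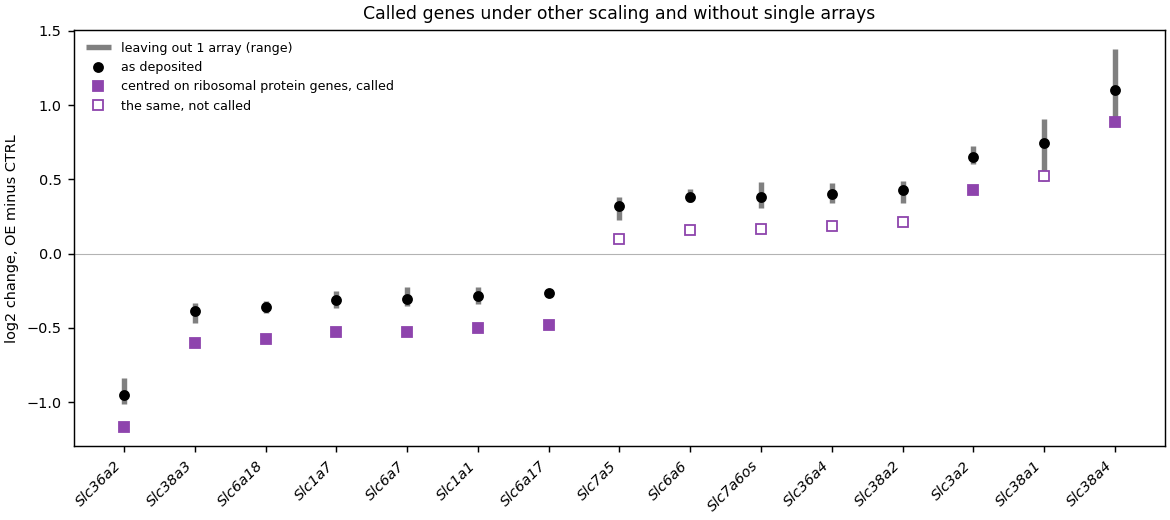
Log2 change (OE minus CTRL) of the 15 called genes as deposited (black points), its range when 1 of the 6 arrays was left out (grey bars), and the change with arrays centred on ribosomal protein genes (squares, filled where called). Centring lowers each value by the same amount, after which *Slc3a2* and *Slc38a4* are the only ones of the 8 higher genes still called.

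Promoter sequences are shown for the called members with the largest rises and falls that had an entry, *Slc38a4* and *Slc3a2* among the higher and *Slc1a7* among the lower genes. *Slc7a11* was added after its values were seen, because it carries the motif searched for. Each is 300 bases, from 250 before to 50 after the annotated start, read 5′ to 3′ on the strand of the gene from RefSeq (GRCm38.p6). The windows are chr15:97055907-97056206 on the minus strand for *Slc38a4* (the most upstream of its 3 windows), chr19:8713848-8714147 on the minus strand for *Slc3a2*, chr4:107968156-107968455 on the plus strand for *Slc1a7* and chr3:50443564-50443863 on the minus strand for *Slc7a11*. Capitals mark the core of the element bound by ATF4 with C/EBP factors (TGATGNAA, searched on both strands).
Slc38a4: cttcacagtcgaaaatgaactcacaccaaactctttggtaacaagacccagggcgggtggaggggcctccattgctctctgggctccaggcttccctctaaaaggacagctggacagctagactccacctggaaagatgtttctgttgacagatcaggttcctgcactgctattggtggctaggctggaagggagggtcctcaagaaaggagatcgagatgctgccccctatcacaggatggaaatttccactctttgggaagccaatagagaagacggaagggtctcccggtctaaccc
Slc3a2: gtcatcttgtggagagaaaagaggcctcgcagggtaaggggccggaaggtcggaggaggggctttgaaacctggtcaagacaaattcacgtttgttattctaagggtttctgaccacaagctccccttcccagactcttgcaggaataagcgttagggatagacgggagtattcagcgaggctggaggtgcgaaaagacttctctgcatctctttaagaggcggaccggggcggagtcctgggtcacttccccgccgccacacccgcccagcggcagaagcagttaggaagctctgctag
Slc1a7: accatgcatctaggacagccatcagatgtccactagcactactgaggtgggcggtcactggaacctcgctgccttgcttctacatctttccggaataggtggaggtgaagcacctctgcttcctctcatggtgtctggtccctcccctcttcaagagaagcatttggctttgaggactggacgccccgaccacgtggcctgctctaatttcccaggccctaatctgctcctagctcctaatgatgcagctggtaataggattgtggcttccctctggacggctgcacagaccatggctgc
Slc7a11: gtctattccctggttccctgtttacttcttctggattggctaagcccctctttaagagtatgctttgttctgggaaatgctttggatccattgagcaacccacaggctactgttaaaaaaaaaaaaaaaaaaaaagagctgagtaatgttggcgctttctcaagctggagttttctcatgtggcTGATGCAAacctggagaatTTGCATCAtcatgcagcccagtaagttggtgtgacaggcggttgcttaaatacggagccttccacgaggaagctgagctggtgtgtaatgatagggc

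The *Slc7a11* window held 2 such cores on opposite strands, the second printed as its reverse complement, at positions −66 and −47 from the start site, beside an mRNA that was not called. Over all 32851 promoter windows 3.97% held the motif, against 5 of the 67 windows of members (7.46%). A window was found for 46 members and for 8 of the 15 called ones, and the 4 members with the motif, *Slc7a11*, *Slc6a21*, *Slc1a4* and *Slc7a7*, were none of the called ones. A direct repeat of AGGTCA with 1 base between (DR1), which COUP-TFII can bind, was found in 13 of all windows (0.0396%) and in no window of a member. The absence of a match says only that these letters are not in this stretch, and the search did not extend beyond it. In base composition the windows differed, with 15 CpG in that of *Slc3a2*, 7 in *Slc1a7*, 5 in *Slc38a4* and 4 in *Slc7a11*.

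Genes around amino acid transport were read from lists of related function, each described by its counts beside the all-gene rates given above. In the list of ATF4 and the amino acid response, 10 of 25 measured genes were higher and 4 lower, with a median change of 0.22. *Atf4* itself was higher (0.58, adjusted p = 0.0133), as were *Psat1* (2.10), an enzyme of serine synthesis, *Atf5* (1.96), the stress gene *Nupr1* (1.82) and *Mthfd2* (1.56), of mitochondrial folate metabolism. *Cth* (−1.25), which makes cysteine, and the lipoprotein receptor *Vldlr* (−0.92) were lower. The mean of the list ranged from −0.28 to −0.20 over the CTRL arrays and from 0.12 to 0.23 over the OE arrays. With arrays centred on ribosomal protein genes, which lowered every change by the same amount, 8 genes of the list were higher and 6 lower, and its median of −0.0003 lay at 0, above the −0.25 of all genes.

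In the list of amino acid sensing by mTORC1, 8 of 33 genes were higher and 6 lower (median 0.06). *Lamtor5* (0.54), of the Ragulator complex that anchors the sensor to lysosomes, was higher, while *Fnip2* (−0.92), a partner of folliculin, *Rragd* (−0.47), a Rag GTPase, and the sestrin *Sesn1* (−0.46) were lower. *Mtor* was not called (−0.16, adjusted p = 0.12).

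Enzymes that use the transported amino acids were split. Of 14 enzymes of glutamine, glutamate and aspartate, 3 were higher and 5 lower (median −0.13): *Asl* (1.35), *Asns* (1.35), which makes asparagine, and *Abat* (1.16), which degrades GABA, rose, and the alanine transaminase *Gpt* (−0.99) fell. The glutamine synthetase *Glul* was not called (−0.26, adjusted p = 0.294). Of 14 enzymes of arginine, polyamines and taurine, 3 were higher and 2 lower (median −0.10), with *Gatm* (1.04), the first enzyme of creatine synthesis, *Azin1* (0.57), which frees ornithine decarboxylase from its inhibitor, and *Csad* (0.51), of taurine synthesis, higher and the flavin monooxygenase *Fmo1* (−0.50) lower. Of 11 genes of glutathione synthesis and the gamma-glutamyl cycle, 2 were higher and 2 lower (median −0.14): *Gclm* (1.19) and *Gss* (0.47), of glutathione synthesis, rose, and *Ggt5* (−0.60) and *Dpep1* (−0.64), which take glutathione or its products apart, fell. *Gclc*, also of glutathione synthesis, was not called (0.29, adjusted p = 0.0634).

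Amino acid and peptide carriers of other families showed 3 higher and 5 lower of 19 (median −0.10). *Slc15a3* (0.82), a peptide and histidine carrier of lysosomes, and *Slc25a18* (0.63), a mitochondrial glutamate carrier, were higher. *Slc25a13* (−0.82) and *Slc25a12* (−0.34), the aspartate-glutamate carriers of mitochondria, and *Slc25a22* (−0.67), another mitochondrial glutamate carrier, were lower. None of 7 partners and regulators of transporters was called by limma or by analysis of variance, 1 of them (*Nedd4l*) had an unadjusted p under 0.05, and their changes ran from −0.26 for the ubiquitin ligase *Nedd4l* to 0.28 for the kinase *Sgk1*. *Asns*, *Gpt2*, *Chac1* and *Sesn2* stand on more than 1 of these lists. Ribosomal centring turned the median of the mTORC1 list to −0.16, with 3 genes higher and 14 lower, and the medians of the other 5 lists, negative before, lay between −0.36 and −0.25. Under that scaling 3 of the glutamine, glutamate and aspartate enzymes were higher and 10 lower, of the arginine, polyamine and taurine enzymes 2 and 7, of the glutathione genes 2 and 5, and of the carriers of other families 2 and 13, while 4 of the 7 partners and regulators were lower. Of all genes, it called 7.16% higher and 50.8% lower.

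**Figure D5:**
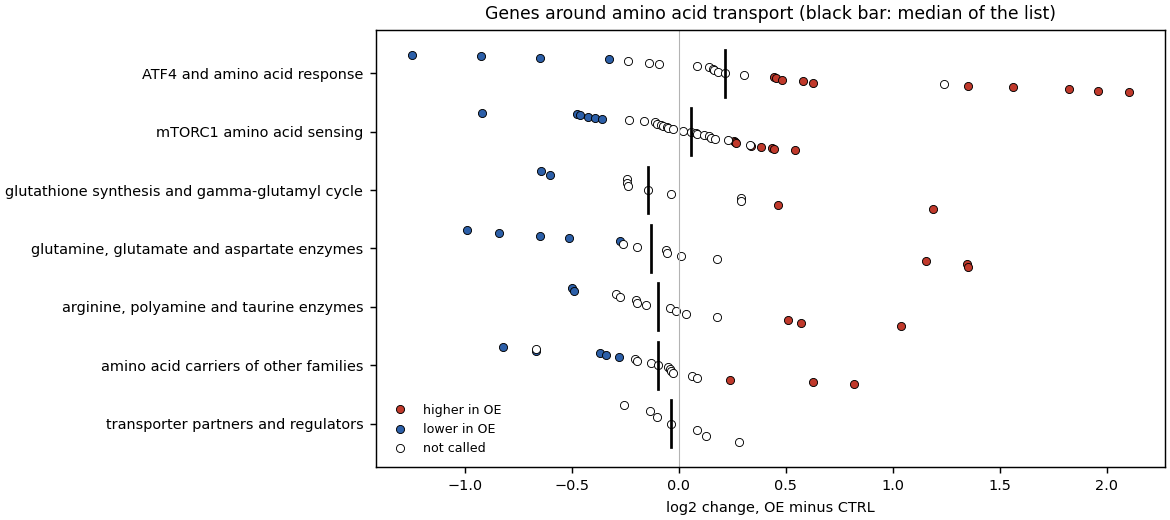
Changes (log2 OE minus CTRL) of the measured genes of 7 lists around amino acid transport, 1 point a gene, filled red where called higher and blue where called lower, with the median of each list as a black bar. The list of ATF4 and the amino acid response has its median at 0.22 and spans −1.25 to 2.10, whereas the transporter partners hold no called gene.

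Marker genes of several cell types of the ventricle, though not of all, differed between the groups as well. Over all genes, 14.9% were called higher and 11.8% lower. Of 12 cardiomyocyte markers, 8 were lower and 1 higher, and the list mean ranged from 0.17 to 0.28 in CTRL and from −0.27 to −0.24 in OE. Among fibroblast markers 6 of 10 were higher and 1 lower (list mean −0.70 to −0.25 in CTRL, 0.23 to 0.44 in OE). Macrophage markers had 7 of 14 higher (list mean −0.36 to −0.12 in CTRL, 0.05 to 0.35 in OE), and dividing-cell markers 3 of 5 (list mean −0.48 to −0.10 in CTRL, 0.18 to 0.54 in OE). Endothelial markers had 8 of 13 lower (list mean 0.14 to 0.34 in CTRL, −0.23 to −0.03 in OE). Of 9 smooth muscle and pericyte markers 4 were higher and 4 lower, of 7 nerve and Schwann cell markers 2 and 1, of 6 neutrophil markers none and 2, and of 10 lymphocyte markers none and 1. No marker of erythroid cells (3 genes), platelets (5), adipocytes (4) or mesothelium (4) was called by limma, *Slc4a1* and *Pf4* had an unadjusted p under 0.05, and 1 erythroid gene was called by analysis of variance. Under ribosomal centring, fibroblast markers had 6 higher and 1 lower, macrophage markers had 4 higher and 2 lower, dividing-cell markers 2 higher, cardiomyocyte markers 10 lower and endothelial markers 12 lower. The scaling also gave 3 higher and 5 lower smooth muscle and pericyte markers, and among the cell types with few or no calls before it 6 lymphocyte, 4 neutrophil, 3 nerve and Schwann cell, 3 platelet, 3 erythroid, 2 mesothelial markers and 1 adipocyte marker were lower, with none higher. Over all genes the same scaling called 7.16% higher and 50.8% lower, as it lowered every change alike. Which markers were absent could not be read from values without a level. In whole ventricles fewer cells of a type and less RNA per cell cannot be told apart, and the part of these shifts in the changes of the transporter genes was not tested.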

How the data were processed

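RNA of whole ventricles was measured on 6 Affymetrix mouse genome arrays, 3 CTRL and 3 OE, each from a separate mouse. The authors processed them in GeneSpring GX with RMA, quantile normalization and a baseline transformation to the median of all samples. The deposited values were taken as log2, since RMA gives these, but the base is not given in the sources used here. Precision is limited by the number of arrays.

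Probe sets naming 1 symbol (34945 of 45101) were averaged per gene, giving 18193 genes. OE was compared with CTRL with limma 3.58.1 under R 4.3.3 (lmFit, eBayes), two-sided, without covariates, with Benjamini-Hochberg adjustment over all genes and a threshold of 0.05. The script was tested on simulated data. One-way analysis of variance, the test of the methods, was an alternative, since 3 arrays give an unsteady variance per gene. The methods' filter on raw expression could not be applied to values without a level.

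The members and lists were chosen with earlier results of these data known. Every member is named. Values in every array are given for called members and for *Slc3a1*, *Slc7a8*, *Slc7a11*, *Slc1a3*, *Slc1a5* and *Slc7a1*, and *Slc6a16* was added after its values were seen. From each list around transport up to 4 called genes with the largest change and up to 2 others are named, and *Atf4* and *Slc25a12* were chosen after seeing the data.

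Other alternatives were array weights, genes without their _x_at and _s_at probe sets, the probe set of largest variance, testing single probe sets, centring arrays on 42 ribosomal protein genes or on their median, symbols of the array annotation, the replicate number as a block, a fold limit of 1.2, leaving out each array and, added after seeing the data, leaving out the opposite-strand genes. Promoter windows were matched by symbol. Python 3.11.15, pandas 2.3.3 and matplotlib 3.10.9 were used.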

Additional observations from a re-analysis of the deposited data

How the results depend on the processing

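With one-way analysis of variance, 1437 genes were higher and 1125 lower, among them 2 and 4 transporter genes. Centring arrays on ribosomal protein genes gave 1302 genes higher and 9236 lower, among them 2 and 35 transporter genes. Counting a gene by any called probe set gave 3587 genes higher and 2777 lower, among them 13 and 9 transporter genes, with *Slc38a9* in both. Leaving out single arrays gave 1830 to 2371 genes higher and 1243 to 1731 lower, with 2 to 8 transporter genes higher and 3 to 5 lower. The other alternatives kept these counts within 1.5 times, and the *Nr2f2* probe set held its call throughout (3.27 to 3.56). The cause of the differences was not tested.

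With the replicate number as a block, 6 transporter genes were higher, all of them among the 8 higher without it, and 5 lower, of which 4 were among the 7 lower without it and *Slc7a10* (−0.31, adjusted p = 0.0371 by limma) was not. The calls lost were those of *Slc38a1* and *Slc7a5* among the higher and of *Slc1a7*, *Slc6a7* and *Slc1a1* among the lower genes. Over all genes the block gave 2369 higher and 1679 lower, against 2709 and 2152 without it. Deviations of same-numbered arrays from their group means correlated at 0.07, −0.12 and 0.03, and only array pair 1 matched best with its own number, so the numbers were not taken to pair the mice.

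Sign changes under an alternative touched 23 transporter genes, none of them called in the comparison as reported. For the called genes most alternatives could not turn the sign, as described above. Under ribosomal centring the log2 changes became *Slc1a4* −0.030, *Slc1a5* −0.0013, *Slc6a3* −0.17, *Slc6a11* −0.20, *Slc6a13* −0.20, *Slc6a14* −0.20, *Slc6a20a* −0.21, *Slc7a2* −0.15, *Slc7a4* −0.20, *Slc7a6* −0.065, *Slc7a7* −0.14, *Slc7a12* −0.12, *Slc7a13* −0.11, *Slc38a10* −0.16, *Slc43a2* −0.16 and *Slc43a3* −0.099. With the probe set of largest variance they became *Slc6a19* 0.0029, *Slc7a1* 0.024 and *Slc7a4* −0.30, and with array weights *Slc7a4* −0.0010. When single arrays were left out, changes ranged over both signs for *Slc6a3* −0.030 to 0.13, *Slc6a11* −0.034 to 0.052, *Slc6a13* −0.086 to 0.11, *Slc6a14* −0.037 to 0.056, *Slc6a15* −0.14 to 0.064, *Slc6a16* −0.34 to 1.40, *Slc6a19* −0.067 to 0.012, *Slc6a20a* −0.10 to 0.084, *Slc7a1* −0.095 to 0.0088, *Slc7a4* −0.030 to 0.076, *Slc7a8* −0.21 to 0.0054, *Slc7a11* −0.13 to 0.025, *Slc7a12* −0.011 to 0.15, *Slc43a1* −0.21 to 0.013 and *Slc43a3* −0.047 to 0.32. Only 6 arrays, and values without a level, limit what small changes can show, and signal over background could not be assessed.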
